A study of Mus musculus with 6 samples.

Results

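The genes of mitochondrial complex I were examined in cardiomyocytes (CMs) that overexpressed the transcription factor SRF. Members were taken by name, as every symbol that starts with Ndufa, Ndufb, Ndufc, Ndufs or Ndufv followed by a digit, together with Ndufab1, while the Ndufaf assembly factors were left out. This gave 38 of the 23337 genes in the count table, of which 37 passed the filter on low counts and 1, Ndufs5, did not. The study delivered AAV9-cTNT-SRF-2A-GFP (SRF-OE) or AAV9-cTNT-GFP (GFP) to wildtype mouse pups on postnatal day 1 at 5e8 vg per g. The cTNT promoter, from the cardiac troponin T gene, limits both transgenes to CMs. GFP+ CMs were sorted at P14 by flow cytometry for poly(A) RNA-seq, so every library, control libraries included, came from cells that carried virus. The labels list 3 libraries per group, and counts were available for SRF-OE replicates 2 and 3 and for GFP replicates 1, 2 and 3, since lengths of genes, not counts, stand under the name of SRF-OE replicate 1.

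The overexpressed gene checked the labels. Srf, which lies on chromosome 17, had levels of 360 and 748 CPM (counts scaled for library size with TMM factors) in SRF-OE replicates 2 and 3. Its GFP levels were 67.2 and 85.1 CPM in replicates 2 and 3, and 338 CPM in the library labelled GFP1. The last value lies near the lower SRF-OE library, against the label. The log2 ratio of Srf in SRF-OE over GFP was 1.76 with all 5 libraries (SE, the standard error of the fit, 0.71, adjusted p = 0.36). Leaving out the library labelled GFP1 raised it to 2.87 (adjusted p = 0.044, both from edgeR's quasi-likelihood test). The main results are therefore given for the 5 libraries as labelled and for the other 4 libraries, with the library labelled GFP1 left out. The gene symbols stand under the name Chr, just as the lengths stand under the name of SRF-OE replicate 1. Whether the whole header is displaced by 1 column was not tested. Such a displacement would change the group of the library labelled GFP1 and of none of the other 4. Total counts ran from 14137433 to 23159631 per library. All 10 CM markers were present in each library, and their summed level was 108800 and 96820 CPM in SRF-OE, 149600 and 169700 CPM in GFP replicates 2 and 3, and 115100 CPM in the library labelled GFP1. The labels do not say which libraries came from separate animals, so p-values measure the spread between these libraries only.

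Complex I takes electrons from NADH and passes them to ubiquinone, and it pumps protons across the inner mitochondrial membrane. It is L-shaped, with a hydrophilic arm in the matrix and an arm buried in the membrane. Its catalytic core is partly encoded in the nucleus, which supplies the matrix-arm subunits that bind flavin and the iron-sulfur clusters, and partly in the mitochondrial genome, which supplies the proton-pumping subunits of the membrane arm. Accessory subunits surround this core and are needed for assembly and stability. The heart depends on oxidative phosphorylation, and the first weeks after birth are a period in which mouse CMs expand their mitochondria. The core subunits of the mitochondrial genome were not analysed here. In the table the nuclear members fall into 7 core subunits of the matrix arm, 9 accessory subunits of the matrix arm, 19 accessory subunits of the membrane arm, the acyl carrier Ndufab1 of both arms, and a pair named after complex I (Ndufa4 and Ndufa4l2) of which Ndufa4 is now assigned to complex IV.

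Of the 37 complex I genes tested, 34 had a lower fitted level in SRF-OE than in GFP, but no single gene passed edgeR's test after adjustment over all genes. The median log2 fold change was -0.25, against 0.03 over the 13754 genes tested. The 7 core subunits of the matrix arm had the lowest median of the arms, -0.49. In all 7 the SRF-OE libraries lay below every GFP library in CPM, which includes the TMM factors. In TPM (counts per kb, set to the same total in every library) this did not hold throughout. SRF-OE replicate 2 then lay above the library labelled GFP1 for Ndufs3 (613.3 against 612.9), Ndufs8 (867.9 against 817.2) and Ndufv1 (1616 against 1486). The accessory subunits of the matrix and membrane arms had medians of -0.18 and -0.24. Differences between the arms were not tested.

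Counts of members were read against those of all genes, and here and below overlap of the groups was judged in CPM. A negative log2 fold change was found for 91.9% of the members, against 46.7% of all genes tested. In 24 of 37 members (64.9%) both SRF-OE libraries lay below all GFP libraries, against 17.3% of all genes. In the other 13 members the groups overlapped, and no member had both SRF-OE libraries above all GFP libraries. At an adjusted p under 0.05 in edgeR's quasi-likelihood test, 0 members were called lower and 0 higher, where 0% of all genes were called in either direction and the lowest adjusted p of any gene was 0.35. At an unadjusted p under 0.05, 10 members (27%) were lower, against 7.59% of all genes, and 0 higher. The members with an unadjusted p under 0.05 in either direction were 1 without GFP replicate 2 and 0 without GFP replicate 3. The share of all genes in these fits is not given here. DESeq2, the tool of the study, called 8 members lower out of 35 to which it gave an adjusted p (22.9%), against 19.7% of the 1079 genes to which its independent filtering gave one. Among these were Ndufs1, Ndufs3, Ndufa9, Ndufa10, Ndufb5, Ndufb9 and Ndufb10. The share called by DESeq2 was thus close to its background.

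Without the library labelled GFP1, the members had a median log2 fold change of -0.26, against 0.04 for all genes. A negative log2 fold change was then found for 33 of 37 members (89.2%), against 46.8% of all genes, and non-overlapping lower levels for 26 members (70.3%), against 30.2%. Again 0 members were called lower by edgeR, where 0.97% of all genes were, and 0 members higher, where 1.98% were. The lowest adjusted p of a member was 0.059, for Ndufs1. At an unadjusted p under 0.05, 14 members (37.8%) were lower, against 14% of all genes, and 1 member was higher. DESeq2 on these 4 libraries called 7 of 37 members lower (18.9%), against 6.16% of the 13521 genes with an adjusted p. Among them were Ndufs1, Ndufs3, Ndufs8, Ndufv1, Ndufa9 and Ndufa10, and 5 of the 7 are core subunits.

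**Figure D1:**
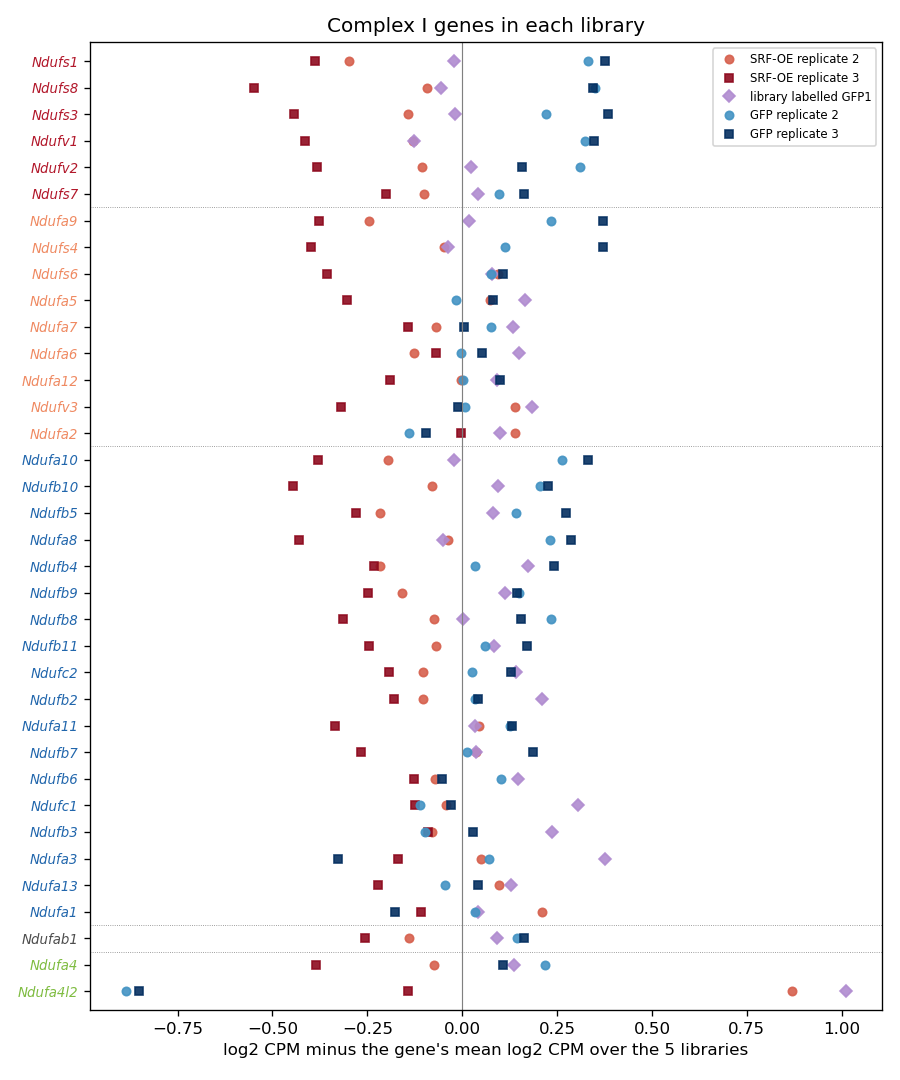
Level of 36 of the 37 tested complex I genes in each of the 5 libraries, as its log2 CPM minus the mean of its log2 CPM over the 5 libraries, with genes grouped by their place in complex I. Red marks are the 2 SRF-OE libraries, blue marks are GFP replicates 2 and 3, and purple diamonds are the library labelled GFP1. The 6 core subunits drawn show both SRF-OE libraries at the bottom, GFP replicates 2 and 3 at the top and the library labelled GFP1 between them.

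The core of the matrix arm carries electrons from NADH to ubiquinone. Ndufv1, which holds the flavin and binds NADH (chromosome 19, 4007384 to 4012806), was at 1223 and 1005 CPM in SRF-OE replicates 2 and 3. Its level was 1674 and 1704 CPM in GFP replicates 2 and 3 and 1226 CPM in the library labelled GFP1. The groups did not overlap, but the library labelled GFP1 lay just above SRF-OE replicate 2. For Ndufv1 the log2 fold change was -0.46 over the 5 libraries (SE 0.22, adjusted p = 0.38) and -0.59 over the 4 (SE 0.17, adjusted p = 0.09). Its partner Ndufv2, which carries an iron-sulfur cluster, was at 875 and 723 CPM in SRF-OE, 1167 and 1050 CPM in GFP replicates 2 and 3 and 956 CPM in the library labelled GFP1. For Ndufv2 it was -0.40 and, over the 4 libraries, -0.47.

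Ndufs1, the largest core subunit of the matrix arm and the holder of several iron-sulfur clusters, had the most negative fitted change of all members. It lies on chromosome 1 from 63143596 to 63176833. Its level was 926 and 869 CPM in SRF-OE, 1431 and 1475 CPM in GFP replicates 2 and 3, and 1121 CPM in the library labelled GFP1, so that the GFP libraries all lay above SRF-OE. The log2 fold change of Ndufs1 was -0.58 (SE 0.19, adjusted p = 0.35) over the 5 libraries and -0.69 (SE 0.15, adjusted p = 0.059) over the 4.

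Ndufs7, at the site where ubiquinone is reduced, was at 710 and 663 CPM in SRF-OE, 814 and 853 CPM in GFP replicates 2 and 3, and 785 CPM in the library labelled GFP1. All GFP libraries were higher than both SRF-OE libraries, but by less than in Ndufs1. The log2 fold change of Ndufs7 was -0.25 (SE 0.14, adjusted p = 0.43), the least negative of the 7 core subunits. Exons of 12 members overlap a gene of the table on the opposite strand.

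Ndufs3 sits in the connecting part of the arm, and Ndufs8 holds a pair of iron-sulfur clusters on the way to ubiquinone. Ndufs3 was at 278 and 225 CPM in SRF-OE, 357 and 400 CPM in GFP replicates 2 and 3, and 302 CPM in the library labelled GFP1. Ndufs8 was at 402 and 294 CPM in SRF-OE, 548 and 546 CPM in GFP replicates 2 and 3, and 413 CPM in the library labelled GFP1. The order of the libraries was again SRF-OE lowest, GFP replicates 2 and 3 highest. The log2 difference was -0.49 for Ndufs3 (SE 0.17) and -0.53 for Ndufs8 (SE 0.21), and -0.58 and -0.65 over the 4 libraries.

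Summed over the 7 core subunits, the level was 5552 and 4789 CPM in SRF-OE, 7622 and 7721 CPM in GFP replicates 2 and 3, and 6120 CPM in the library labelled GFP1. Of the core and accessory groups, the core moved most when the library labelled GFP1 was left out: its median log2 fold change was -0.49 with it and -0.59 without. Levels were also scaled for gene length as TPM (counts per kb, set to the same total in every library). The core made up 13.4% of the sum over all members, Ndufa4 and Ndufa4l2 included, in each of the SRF-OE libraries. In GFP replicates 2 and 3 it made up 15.9% and 16.2%. In the library labelled GFP1 it made up 13.3%, so on this measure that library lay on the SRF-OE side.

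**Figure D2:**
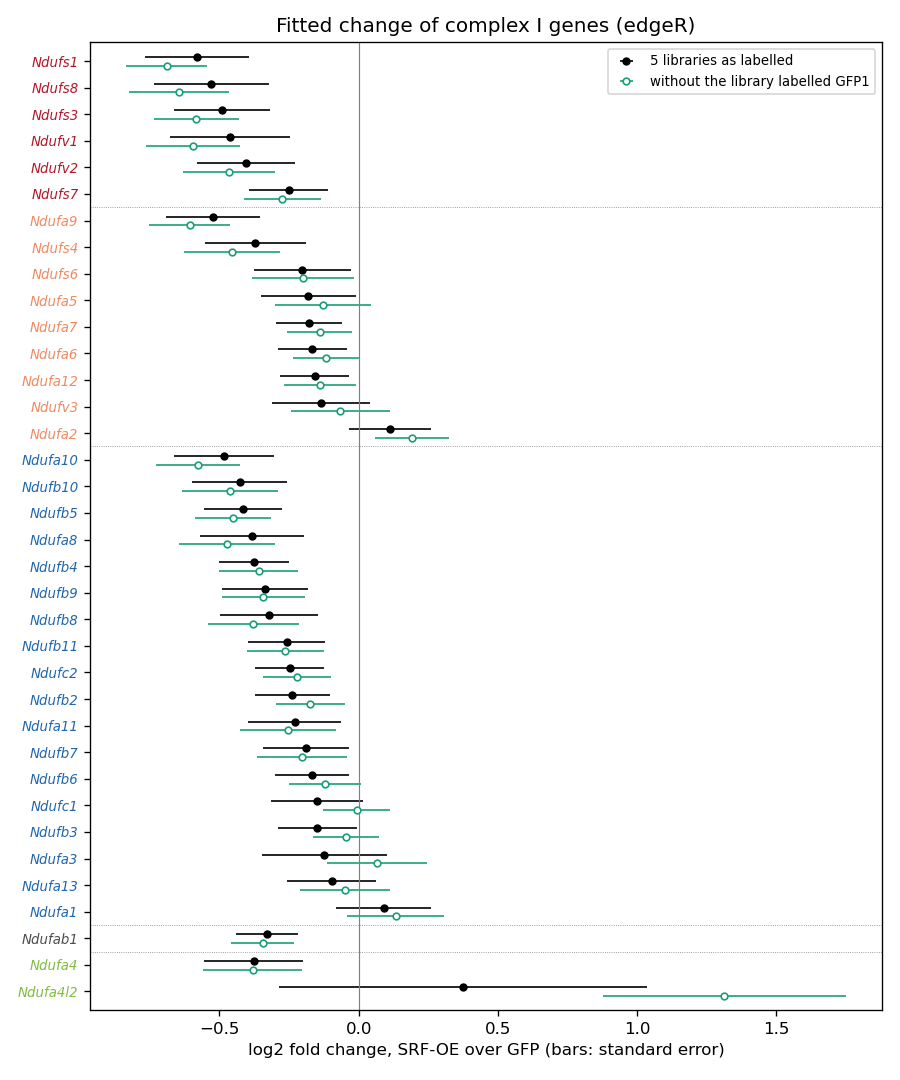
Fitted log2 fold change of SRF-OE over GFP for 36 of the 37 tested complex I genes, with bars of 1 standard error, over the 5 libraries as labelled and over the 4 libraries without the library labelled GFP1. The 6 core subunits drawn lie between -0.58 and -0.25 over the 5 libraries, and Ndufa4l2 has by far the widest bar.

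The accessory subunits of the matrix arm had a wider range, from -0.52 to 0.11. Ndufa9, which binds NADPH and sits beside the ubiquinone site, was at 655 and 598 CPM in SRF-OE, 913 and 1004 CPM in GFP replicates 2 and 3, and 786 CPM in the library labelled GFP1. This was the pattern of the core subunits, with a log2 fold change of -0.52 (SE 0.17, adjusted p = 0.35) and -0.61 over the 4 libraries (adjusted p = 0.068). Ndufs4, a late-assembling subunit whose loss causes Leigh syndrome, was at 340 and 267 CPM in SRF-OE, 380 and 456 CPM in GFP replicates 2 and 3, and 343 CPM in the library labelled GFP1. The lowest GFP library lay just above SRF-OE replicate 2, and the log2 fold change of Ndufs4 was -0.37 (SE 0.18).

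Other accessory subunits of the matrix arm separated the groups less or not at all. Ndufs6, which carries a zinc ion, was at 615 CPM in SRF-OE replicate 2, 450 CPM in SRF-OE replicate 3, and 608, 608 and 621 CPM in the 3 GFP libraries in order of their labels, the library labelled GFP1 first. Only SRF-OE replicate 3 stood below the rest, and the fitted log2 difference was -0.20 (SE 0.17). Ndufv3, a small subunit of the NADH-binding module, was at 487 and 355 CPM in SRF-OE and 502, 445 and 439 CPM in the GFP libraries in order, with overlapping groups and a log2 fold change of -0.14. Ndufa2, a small accessory subunit with a thioredoxin-like fold, was the member of this arm with a positive value. It was at 617 and 559 CPM in SRF-OE and 600, 508 and 524 CPM in the GFP libraries, a log2 fold change of 0.11 (SE 0.15) over the 5 libraries. Without the library labelled GFP1 its groups no longer overlapped, with SRF-OE higher, and the log2 fold change was 0.19 (adjusted p = 0.38). The remaining members of this arm (Ndufa5, Ndufa6, Ndufa7 and Ndufa12) had log2 fold changes between -0.18 and -0.16.

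In the membrane arm, 17 of 18 accessory subunits tested had a negative log2 fold change, against 46.7% of all genes, and in 10 both SRF-OE libraries lay below all GFP libraries, against 17.3%. Ndufa10, related to nucleoside kinases, had the lowest value. It was at 868 and 764 CPM in SRF-OE, 1193 and 1252 CPM in GFP replicates 2 and 3, and 980 CPM in the library labelled GFP1. The log2 difference was -0.48 (SE 0.18, adjusted p = 0.36) and -0.58 over the 4 libraries (adjusted p = 0.079).

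Ndufb10 and Ndufb5 are accessory subunits that lie along the proton-pumping part of this arm. Ndufb10 was at 789 and 613 CPM in SRF-OE and 890, 962 and 975 CPM in the GFP libraries in order. Ndufb5 was at 537 and 514 CPM in SRF-OE and 660, 689 and 754 CPM in the GFP libraries. Both kept the groups apart, with log2 fold changes of -0.43 (SE 0.17) and -0.42 (SE 0.14). Exons of Ndufb5 share 530 bases with Mrpl47 on the opposite strand, and the library kit does not mark strand, so reads in that stretch cannot be assigned to one gene.

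At the other end of the membrane arm were Ndufa13 and Ndufa1. Ndufa13, also known as GRIM-19 for its link to cell death, was at 756 and 607 CPM in SRF-OE and 773, 685 and 728 CPM in the GFP libraries, with overlapping groups and a log2 fold change of -0.10 (SE 0.16). Ndufa13 shares 375 exonic bases with Tssk6 on the opposite strand. Ndufa1, encoded on the X chromosome, was at 934 and 748 CPM in SRF-OE and 831, 826 and 714 CPM in the GFP libraries, which also overlapped, with a log2 fold change of 0.09 (SE 0.17). The other membrane-arm members tested lay between -0.38 and -0.12.

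A few members stand outside these arms. Ndufab1, the mitochondrial acyl carrier protein, which also serves fatty acid synthesis, was at 146 and 134 CPM in SRF-OE and 171, 177 and 179 CPM in the GFP libraries. The 2 groups did not overlap, and its log2 fold change was -0.33 (SE 0.11, the smallest of the members, adjusted p = 0.35). Ndufa4, the complex IV subunit, was at 1439 and 1159 CPM in SRF-OE and 1664, 1763 and 1631 CPM in the GFP libraries, a log2 fold change of -0.38 (SE 0.18), with no overlap of the groups.

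Ndufa4l2, a paralogue of Ndufa4 that hypoxia induces and that is known as a pericyte marker, was the member least like the others. It was at 5.72 and 2.84 CPM in SRF-OE and at 1.7 and 1.74 CPM in GFP replicates 2 and 3, but its highest value, 6.32 CPM, was in the library labelled GFP1. Its raw counts were 99, 65, 37, 22 and 133 in the same order. The log2 fold change was 0.38 (SE 0.66) over the 5 libraries and 1.31 (SE 0.44, adjusted p = 0.12) without the library labelled GFP1, where its unadjusted p was under 0.05. The mural cell marker Rgs5 was also highest in SRF-OE replicate 2 and in the library labelled GFP1, at 70.4 and 66.6 CPM. It was at 26.6 CPM in SRF-OE replicate 3 and 23.3 and 20.8 CPM in GFP replicates 2 and 3. Rgs5 is among the 5 smooth muscle markers, whose median log2 fold change was 0.84. Their sum, mostly Acta2, was instead highest in GFP replicates 2 and 3, at 1061 and 1532 CPM. That sum was 673 and 535 CPM in SRF-OE and 569 CPM in the library labelled GFP1. The 10 endothelial markers summed to 918 and 356 CPM in SRF-OE, 382 and 364 CPM in GFP replicates 2 and 3 and 704 CPM in the library labelled GFP1. The part of other cell types in the Ndufa4l2 values was not tested.

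Ndufs5, a membrane-arm subunit on the intermembrane side, was listed with 0 counts in all 5 libraries. With a floor of 3 counts per library this allows up to 0.212 CPM in the shallowest library and 0.13 CPM in the deepest, for counting error alone. The RefSeq gene table lists a related locus, Ndufs5-ps, and the handling of multiply mapped reads is not given in the sources used here. Ndufb4, chosen after its values were seen, also has copies listed there (Ndufb4b and Ndufb4c) and was low for a subunit, at 40.7 and 40.3 CPM in SRF-OE and 53.3, 48.4 and 56 CPM in the GFP libraries. Its log2 fold change was -0.38 (SE 0.13), and reads split with a copy would make its level uncertain.

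Levels were compared between members per length, in TPM over all 5 libraries. Ndufa4 was the highest, at 5981 ± 623 TPM (SD, n = 5), followed by the membrane-arm subunits Ndufb8 at 4142 ± 342 TPM and Ndufb9 at 4040 ± 239 TPM. The ranges of Ndufb8 and Ndufb9 overlapped, so their order was not resolved, whereas the lowest Ndufa4 value, 4983 TPM, was above the highest value of Ndufb8, 4585 TPM. At the low end were Ndufs4 at 447 ± 56.8 TPM, Ndufab1 at 388 ± 21.7 TPM and Ndufb4 at 202 ± 17.6 TPM. The median member was at 1250 TPM. Ndufa4l2 was at 7.49 ± 4.66 TPM and thus far under all other members tested. The mean transcript levels of the members other than Ndufa4l2 spanned 29.6-fold, from Ndufb4 to Ndufa4. Without these ends, of which Ndufa4 belongs to complex IV and Ndufb4 has gene copies, the span was 10.7-fold.

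**Figure D3:**
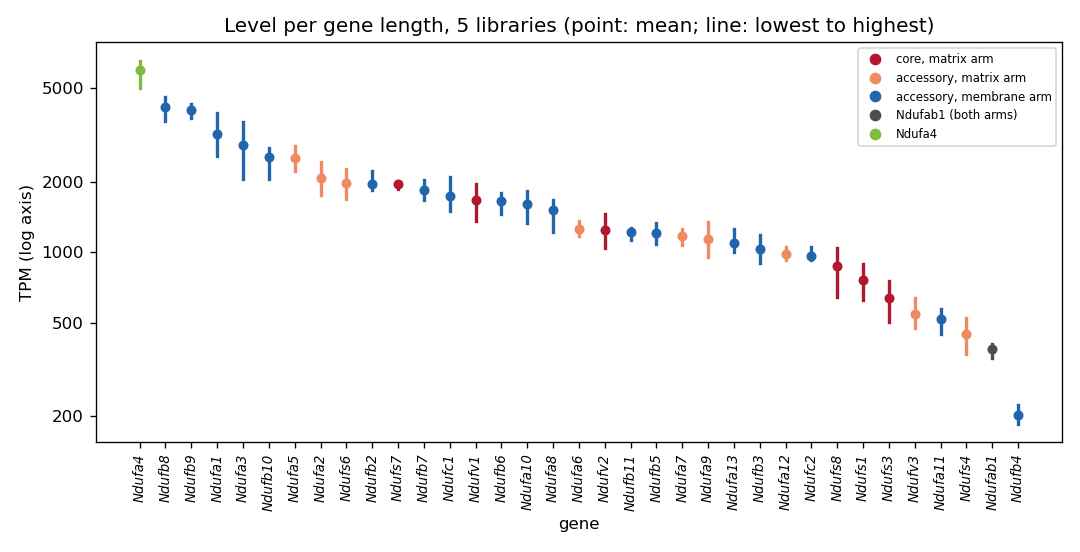
Level per length of 35 of the 36 tested complex I genes other than Ndufa4l2, in TPM on a log axis, with genes ordered by their mean and coloured by place in the complex. Points are means over the 5 libraries and lines run from the lowest to the highest library. Ndufa4 is highest at a mean of 5981 TPM and Ndufb4 is lowest at 202 TPM.

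The single libraries were not alike within a group. SRF-OE replicate 3 was lower than SRF-OE replicate 2 in 36 of 37 members, with Ndufa6 as the exception, and the median difference was -0.19 on the log2 scale. GFP replicate 3 differed from GFP replicate 2 by a median of only 0.04. SRF-OE replicate 3 was the lowest of the 5 libraries for 31 members. This replicate also had the higher Srf level of the SRF-OE libraries, but with 2 libraries no relation can be tested. Left without SRF-OE replicate 2, the median log2 fold change of the members was -0.38, and left without SRF-OE replicate 3 it was -0.21.

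The library labelled GFP1 took a different place in different arms. In all 7 core subunits it had a CPM above both SRF-OE libraries and below GFP replicates 2 and 3, as it did in 15 of 37 members in all. In 12 members it was above all other libraries, and none of these was a core subunit. Of these 12, 7 were accessory subunits of the membrane arm and 4 of the matrix arm, and the other was Ndufa4l2. No share over all genes is given beside these counts, so they describe the members only. The summed level of all members, Ndufa4 and Ndufa4l2 included, was 22580 and 19310 CPM in SRF-OE. It was 26540 and 26790 CPM in GFP replicates 2 and 3, and 24870 CPM in the library labelled GFP1. As a share of all counts, before TMM factors were applied, the members held 2.45% and 2.07% in SRF-OE, 2.5% and 2.4% in GFP replicates 2 and 3 and 2.52% in the library labelled GFP1. On this unscaled measure the groups overlapped, since SRF-OE replicate 2 lay above GFP replicate 3. They overlapped in TPM too, with sums of 62600 and 54700 TPM in SRF-OE and 62040 and 59730 TPM in GFP replicates 2 and 3. The library labelled GFP1 was at 63530 TPM.

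Of the marker sums, those of the CM list and the red blood cell list kept the groups apart over the 5 libraries, lower in SRF-OE for CM markers and higher for red blood cell markers. The median log2 fold change of the 10 CM markers was -0.47 over the 5 libraries and -0.60 over the 4. The order of their summed levels was that of the complex I core. Most of these CM markers are myofibril genes. The study reports that SRF overexpression lowered both metabolism and myofibril genes. The 9 fibroblast markers summed to 917 and 459 CPM in SRF-OE and 496, 391 and 333 CPM in the GFP libraries in order, with a median log2 fold change of 0.79. The 10 endothelial markers had a median of 0.43, but their sums, given above, were lowest in SRF-OE replicate 3, and the groups overlapped in the fibroblast, endothelial and leukocyte sums. Leukocyte markers summed to at most 30.5 CPM and red blood cell markers to at most 6.65 CPM in any library. The 5 smooth muscle markers, which include the SRF targets Acta2 and Tagln, summed to 673 and 535 CPM in SRF-OE, 569 CPM in the library labelled GFP1, and 1061 and 1532 CPM in GFP replicates 2 and 3. Most of that sum was Acta2, with a log2 fold change of -1.12, while the median of the 5 markers was 0.84. The part of these markers' cells in the complex I values was not tested, and in sorted cells fewer CMs and less complex I RNA per CM cannot be told apart.

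The fitted change went along with gene length among the members. Without Ndufa4l2, the Spearman correlation between the length in the table and the log2 fold change was -0.55 across 36 members over the 5 libraries and -0.62 over the 4. Across all genes tested it was -0.01 and -0.05. These are descriptions across genes, which share the same libraries and are not independent replicates. The core subunits are longer, with a median of 1472 bp against 561 bp for the accessory subunits of the matrix arm and 638 bp for those of the membrane arm, so place in the complex and length cannot be told apart for most members. The 7 accessory subunits over 900 bp (Ndufa9, Ndufa10, Ndufa11, Ndufa13, Ndufb5, Ndufs4 and Ndufv3) had a median log2 fold change of -0.37, with a range from -0.52 to -0.10.

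**Figure D4:**
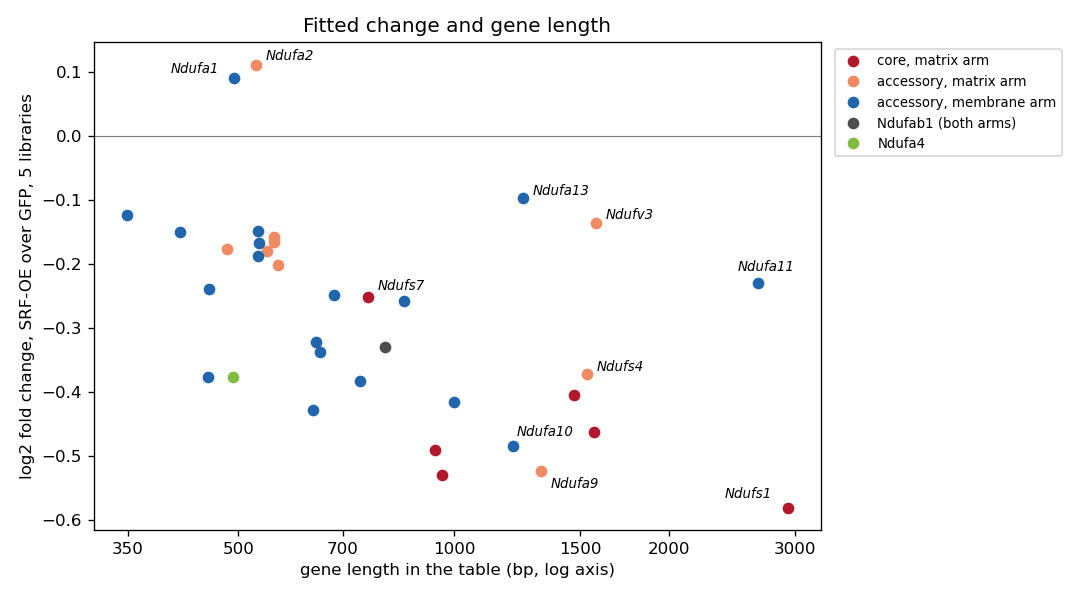
Fitted log2 fold change of SRF-OE over GFP over the 5 libraries against gene length in bp on a log axis, for 35 of the 36 tested complex I genes other than Ndufa4l2, coloured by place in the complex. Ndufs1 is the longest at 2927 bp and the lowest at -0.58, while Ndufa11, Ndufa13 and Ndufv3 are long with values between -0.23 and -0.10.

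Promoter sequence is a feature the choice of members did not use. Windows from 250 bases before to 50 bases after the annotated start (RefSeq, GRCm38.p6) were found for 33 of the 38 members, and for 9740 of the 13754 genes tested. Ndufa2, Ndufa4l2, Ndufb9 and Ndufs1 are among the members without a window. NRF1 is a transcription factor known for its sites in genes of the respiratory chain, and YY1 binds a motif that often spans the start codon. Matches were sought on both strands, with positions counted from the annotated start. They are descriptions of letters, and no binding was measured. The stretches below are the YY1 matches of the members, read 5′ to 3′ on the gene strand, with the letters AAGATGGCG in capitals. They are shown because in 5 of 5 the ATG within the capitals is the annotated start codon.
Ndufc1 (chr3:51408914-51408943, minus strand): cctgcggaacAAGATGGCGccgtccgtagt
Ndufa9 (chr6:126849096-126849125, minus strand): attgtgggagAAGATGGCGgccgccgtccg
Ndufs7 (chr10:80249463-80249492, plus strand): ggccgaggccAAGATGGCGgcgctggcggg
Ndufs6 (chr13:73328433-73328462, minus strand): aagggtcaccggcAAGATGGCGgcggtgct
Ndufs4 (chr13:114388045-114388074, minus strand): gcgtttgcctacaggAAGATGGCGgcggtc

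The YY1 letters were found in 5 of 33 members (15.2%), against 1.4% of all 32851 windows and 3.3% of the genes tested with a window. These members had unlike fitted changes, from -0.52 for Ndufa9 to -0.15 for Ndufc1. The NRF1 core, spelled GCGCANGCGC, was found in 7 members (21.2%), against 4.6% of all windows and 10.8% of the genes tested. Its matches are shown in the same way, with the core in capitals, because Ndufb4 holds 3 of them. In Ndufs6, Ndufa8 and Ndufa6 the core lies on the opposite strand, so the capitals there are its reverse complement.
Ndufb4, first match (chr16:37654540-37654569, minus strand): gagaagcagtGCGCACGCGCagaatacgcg
Ndufb4, next match (chr16:37654428-37654457, minus strand): ccttgtgcgcGCGCAGGCGCacttcctgag
Ndufb4, last match (chr16:37654371-37654400, minus strand): cctcatatccGCGCAGGCGCagatgtgcgc
Ndufs6 (chr13:73328479-73328508, minus strand): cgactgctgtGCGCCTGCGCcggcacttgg
Ndufa8 (chr2:36049349-36049378, minus strand): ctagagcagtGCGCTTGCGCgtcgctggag
Ndufs5 (chr4:123718265-123718294, minus strand): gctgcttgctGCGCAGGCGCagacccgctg
Ndufa5 (chr6:24527697-24527726, minus strand): tgtgtgagctGCGCAGGCGCaaatctacct
Ndufa6 (chr15:82354249-82354278, minus strand): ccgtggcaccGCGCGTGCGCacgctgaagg
Ndufa11 (chr17:56717692-56717721, plus strand): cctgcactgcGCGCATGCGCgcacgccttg

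The other motifs searched had no common direction. The ETS letters CCGGAAGT were found in 1 member (3.03%), Ndufs3, against 8.48% of the genes tested, and the Sp1 letters GGGCGG in 15 (45.5%), against 67.9%. The cAMP response element TGACGTCA was found in 3 (9.09%), Ndufa10, Ndufa11 and Ndufb2, against 3.48%. Neither the ERR letters TCAAGGTCA nor the CArG box, the element that SRF is known to bind, had a match in any of the 33 windows, where 0.329% and 1.64% of the genes tested had one. At such shares few matches would fall in 33 windows, and absence of these letters says nothing about binding elsewhere.

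Complex I is built by assembly factors that are not part of the finished enzyme. Of the 18 in the list, 7 of which are in the table under older symbols, all were tested, and 0 were called higher or lower by edgeR, with no covariate, over either the 5 or the 4 libraries. Their median log2 fold change was -0.39, with 16 of 18 negative, against 46.7% of all genes, and 15 with SRF-OE below GFP and no overlap, against 17.3%. At an unadjusted p under 0.05, 9 were lower over the 5 libraries, against 7.59% of all genes. Foxred1, an oxidoreductase-like protein needed for complex I assembly, had the lowest value. It was at 123 and 102 CPM in SRF-OE, 180 and 201 CPM in GFP replicates 2 and 3, and 142 CPM in the library labelled GFP1. Its fitted log2 difference was -0.63 (SE 0.18, adjusted p = 0.35) and -0.76 over the 4 libraries (adjusted p = 0.052). DESeq2 called Foxred1 lower in both sets of libraries (adjusted p = 0.025 and 0.0017). The highest value was that of Dmac1, listed as 3110001D03Rik, which was at 45.9 and 52.6 CPM in SRF-OE and 51, 42.2 and 43.5 CPM in the GFP libraries, with overlapping groups and a log2 fold change of 0.11.

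The values of complex I were then set beside those of its partners. Complex I passes electrons to ubiquinone, which other dehydrogenases such as succinate dehydrogenase (complex II) also feed. Of 10 genes of these other entries, 9 were tested and all 9 had a negative log2 fold change, with a median of -0.49. Sdha, the flavoprotein of complex II, was at 2172 and 1950 CPM in SRF-OE, 3446 and 3462 CPM in GFP replicates 2 and 3, and 2532 CPM in the library labelled GFP1, and its log2 fold change was -0.61 (SE 0.22). The library labelled GFP1 was thus between the others, as in the complex I core. The 10 genes of ubiquinone synthesis had a median of -0.51, with 9 negative. Pdss1, which helps make the ubiquinone tail, had a log2 fold change of -0.80 over the 5 libraries (adjusted p = 0.35) and was not called there. It was called lower by edgeR over the 4 libraries, as were 0.97% of all genes, with a log2 fold change of -0.98 (adjusted p = 0.0499).

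Complexes III, IV and V had a median log2 fold change of -0.30, with 37 of 42 tested genes negative, and the mitochondrial ribosomal proteins one of -0.25, with 69 of 76 negative. Negative medians were thus found in these lists as well as in complex I, and the differences between lists were not tested.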

How the data were processed

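RNA of GFP+ CMs was read as single-end RNA-seq from SMART-Seq v4 and Nextera XT libraries. Per the study's methods and the submitters' processing notes, the authors mapped the reads with STAR 2.5.3a to mm10 and counted them per gene with featureCounts of Subread 1.5.2, and they deposited raw counts. The strand setting is not given in the sources used here. The remaining deposited column, headed as a SRF-OE library, holds another kind of value, gene length in bp. Columns were assigned by name, and 0 were left unused.

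Counts were fitted in edgeR 4.0.16 (R 4.3.3) with filterByExpr, TMM factors and the quasi-likelihood test, SRF-OE against GFP with no covariate. Benjamini-Hochberg adjustment ran over all genes tested, with a cutoff of 0.05. The standard error is the log2 fold change divided by the square root of the F statistic. TPM uses the lengths in the table. DESeq2 1.42.0, other scalings and filters, a replicate block and leaving out each library were alternatives. An exact permutation test of 2 against 3 libraries cannot give a p under 0.1. The fits were tested on simulated data with 200 changed genes. The changes planted there were larger than any fitted for a member, and no library was mislabelled. Changes of the size seen in the members were therefore not covered by it.

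The members and lists were chosen with earlier results of these data known. The genes named are the core subunits, in each accessory arm the 3 lowest and 2 highest log2 fold changes, Ndufab1, Ndufa4, Ndufa4l2, members that fail the filter, the assembly factors with the lowest and highest value, and Srf. Ndufa3, Ndufb4, Sdha, Pdss1, Rgs5, Acta2 and the members listed by call or motif were named outside this rule after their values were seen. Positions are from GENCODE M21 (GRCm38). A gene that these rules name is not reported here by name and is left out of the plots, while counts and medians include it.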

Additional observations from a re-analysis of the deposited data

How the results depend on the processing

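No complex I gene was called by edgeR under DESeq2 size factors, upper quartile scaling or either filter. The same held with the replicate block and when 1 GFP library was left out. Under those scalings and filters, and without GFP replicate 2 or 3, 0 of all genes were called. The zeros of the members there do not set complex I apart. Other genes did pass with the replicate block and over the 4 libraries, as given below. DESeq2 called 8 complex I genes lower, and 7 when the library labelled GFP1 was left out (the 4 libraries). Assembly factors called lower were 1 with DESeq2, which gave an adjusted p to 1 of the 18, and 3 of 18 with DESeq2 on the 4 libraries, against 6.16% of all genes. With the replicate block it was 1, Foxred1, on 5 libraries (adjusted p = 0.042) and on 4 (adjusted p = 0.046). The log2 fold change of Srf was 2.87 with DESeq2 on the 4 libraries and 2.78 with the replicate block on 5 or on 4 libraries, and its adjusted p was under 0.05 there. When each library was left out, it ranged from 1.13 to 2.87, and the median of the complex I genes ranged from -0.38 to -0.21. The replicate block called 582 genes of all higher and 432 lower, where the fit without it called 0 of either, and 547 and 392 on the 4 libraries, against 265 and 130. DESeq2 called 11 and 213, and 853 and 833 on the 4 libraries. Deviations of libraries with the same number correlated at 0.37 for number 2 and -0.06 for number 3 in the 5 libraries, and at 0.20 for both numbers in the 4. With only 2 shared numbers and nothing in the labels that ties them to a batch or litter, they were not taken to pair the libraries.

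Among the genes named by the rule above, some log2 fold changes turned in sign when a library was left out. Across these fits Ndufa1 ranged from -0.081 to 0.23, Ndufa4l2 from -0.21 to 1.31, Ndufv3 from -0.38 to 0.066 and Ndufa13 from -0.27 to 0.043. Ndufa3, outside that rule, was at -0.12 over the 5 libraries and 0.066 without the library labelled GFP1. The other members are not given for every such fit. The cause was not tested. The fits without an SRF-OE library rest on 1 such library, which was assumed to vary like the others. Standard errors of the members started at 0.11, and even the log2 fold change of -0.58 of Ndufs1 did not pass edgeR's adjusted threshold.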
